A study of Mus musculus with 186 samples.

Results

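Crem and Sik1 are genes through which the transcription factor CREB limits its own output, and they were followed here through 6 experiments on the response of mouse cortical neurons to activity. Both were taken by their gene symbol wherever a deposited table held them. They are 2 of 298 genes on the capture panel. They account for 18 of 27962 intron measurements, 17 of them for transcripts of Crem and 1 for Sik1, and for 5 of 351 captured enhancer regions, 1 of which the deposited table names for Crem and 4 for Sik1.

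CREB sits on cAMP response elements in promoters and becomes active when calcium or cAMP signals lead to its phosphorylation and to the entry of its coactivators, the CRTC proteins, into the nucleus. Crem encodes activators and repressors of the CREB family. Its best known repressor, ICER, starts from a promoter inside the gene, contains the DNA-binding end of the protein without the activation domain, and is itself a target of CREB. Sik1 encodes a salt-inducible kinase, activated by LKB1 (gene Stk11), that phosphorylates CRTC proteins and so keeps them in the cytoplasm, and it too is a CREB target. In neurons, MEK and ERK form another route from synaptic activity to immediate-early genes, and ERK can reach CREB through its own downstream kinases.

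The cultures were cortical neurons from CD1 embryos dissected at E16.5 and kept for 7 to 8 days in vitro. They were left unstimulated or were taken 20, 60 or 360 min into sustained or brief activity, with DMSO as vehicle, with U0126, an inhibitor of MEK, or with cycloheximide, an inhibitor of protein synthesis. How activity was evoked is not stated in the labels. Visual cortex came from adult male C57/Bl6 mice that had been given corn oil or SL327, another MEK inhibitor, and had been kept in the dark or exposed to brief or sustained light, with samples at 30 and 150 min. Per the labels, unstimulated cultures grown separately from the same dissection are technical replicates, and these were averaged.

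Depth is given as recovered reads summed over the genes, regions or transcripts measured, so reads elsewhere are not counted. Intron reads shared by transcripts count more than once. Depth ranged from 8498 to 3295698 reads in the 58 libraries of the culture gene capture, from 1253748 to 7695002 in the 8 of the cycloheximide experiment, and from 10486281 to 25945718 in the 22 total RNA libraries behind the introns. The 48 enhancer libraries held 48309 to 1073939 reads, and the 20 and 19 visual cortex libraries of sustained and brief light held 379220 to 5744389 and 270449 to 2756884. The library with 8498 reads was replicate 2 of the vehicle cultures at 60 min of brief activity, and results that rest on it are given with and without it. As a check of the labelled cells, the introns of 9 of 9 neuronal markers were above the pseudocount in unstimulated vehicle cultures, with summed levels of 4352 and 3599 RPM in the replicates. The 5 astrocyte markers summed to 356 and 470 RPM and the oligodendrocyte lineage to 135 and 66.2 RPM, most of it from Pdgfra, while 1 of 5 microglial markers was above the pseudocount and the microglial sum was 0.747 and 0.734 RPM. In bulk RNA, fewer cells of a type and less RNA per cell cannot be told apart.

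In the culture gene capture Crem stayed near its unstimulated level for the first hour of sustained activity and was then 3.29 log2 units higher at 360 min, whereas Sik1 was already higher at 60 min and overlapped that level at 360 min. Neither gene was called at any time after brief activity. Values are a signal, reads divided by a factor of each library, and tests were made with limma on log2 of the signal plus a pseudocount of 0.00936, with an adjusted p below 0.05 as the threshold.

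The Crem signal in the 7 unstimulated vehicle replicates ran from 0.0681 through a median of 0.0756 to 0.133. At 20 min of sustained activity it was 0.0733, 0.0618 and 0.0934. At 60 min the 7 replicates ran from 0.0831 through 0.100 to 0.189. These 3 groups overlapped, and the highest unstimulated replicate lay above the median at 60 min. At 360 min the 6 replicates were spread from 0.406 to 1.53, with a mean of 0.994 ± 0.421 (SD, n = 6), and every one lay above every replicate of the earlier times.

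The differences from unstimulated cultures followed these values. At 60 min Crem differed by 0.38 ± 0.31 (log2, SE; adjusted p = 0.697, 95% interval −0.25 to 1.01). At 360 min it rose by 3.29 ± 0.33 (adjusted p = 1.5e-11), a gain that held against 60 min as well, at 2.91 ± 0.33 (adjusted p = 6.9e-10). The panel as a whole was also high at 360 min. There 192 of 277 genes tested were called higher, which is 69.3%, and the median log2 change of all genes was 1.46, so Crem moved further than most of a panel that moved upward. With the libraries rescaled on all genes kept, the median change at 360 min became 0.22 and that of Crem 1.97 (adjusted p = 5.2e-06).

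The Sik1 signal in the unstimulated replicates ran from 0.222 through 0.531 to 0.722, and at 20 min of sustained activity it was 0.521, 0.639 and 0.388. At 60 min it ran from 0.986 through 1.41 to 1.87. At 360 min it ran from 1.35 through 1.89 to 3.83. In sustained activity no replicate of these later groups overlapped the unstimulated group or the group at 20 min, but the groups at 60 and 360 min overlapped each other widely. At 360 min Sik1 was 2.48, 3.83 and 2.37 in replicates 1 to 3, and 1.41, 1.35 and 1.41 in replicates 4, 6 and 7. Crem ran the other way, with 0.670, 0.406 and 0.945 in the former and 1.38, 1.53 and 1.03 in the latter. What set these replicates apart was not tested.

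Sik1 rose by 1.42 ± 0.29 at 60 min (adjusted p = 2.3e-04), where 36 of 277 genes, 13.0%, were called higher and the median log2 change of all genes was 0.10. It was higher at 60 than at 20 min by 1.41 ± 0.38 (adjusted p = 0.00953), a comparison in which 9.39% of genes were called, and without replicate 7 at 20 min the adjusted p was 0.107. At 360 min the change from unstimulated was 1.96 ± 0.30 (adjusted p = 3.6e-07). Between 60 and 360 min Sik1 differed by 0.54 ± 0.30 (adjusted p = 0.117), in a comparison where 62.8% of genes were called. The size of the change at 360 min depended on the scale of the libraries. Rescaling sets each library by the median gene of the panel, so it takes out a rise shared by most panel genes. The rescaled value places Sik1 beside the panel and does not test whether it rose. With rescaling, Sik1 differed from unstimulated cultures by 0.62 (adjusted p = 0.0575), and its difference between 60 and 360 min turned to −0.60 (adjusted p = 0.0598).

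After brief activity, Crem was 0.0705, 0.0758 and 0.102 at 20 min and 0.0721, 0.0708, 0.0733, 0.105 and 0.115 at 360 min. At 60 min it ran from 0 through 0.0675 to 0.0812. The value of 0 came from the library of 8498 reads, where 0 reads allow a signal of up to 0.222, above every other replicate of that group, so this library does not place Crem. All brief groups overlapped the unstimulated group. At 20 min neither gene was called in either pattern, where 2.17% of genes were called in each.

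Sik1 was 0.555, 0.503 and 0.404 at 20 min after brief activity and 0.629, 0.566, 0.644, 0.350 and 0.365 at 360 min. At 60 min it ran from 0.489 through 0.720 to 3.10, with the highest value again in the shallow library, where it stood on 42 reads (exact Poisson 95% interval of the signal 2.24 to 4.20, counting error only). The other replicates of that group overlapped the unstimulated group. The differences from unstimulated at 60 min were −0.67 ± 0.31 for Crem (adjusted p = 0.303) and 0.72 ± 0.29 for Sik1 (adjusted p = 0.249), and 15 of 277 genes, 5.42%, were called there. Without the shallow library these were −0.23 for Crem (adjusted p = 0.949) and 0.41 for Sik1 (adjusted p = 0.834). At 360 min they were 0.02 ± 0.34 for Crem (adjusted p = 0.995) and −0.02 for Sik1 (adjusted p = 0.995), where 0.00% of genes were called.

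**Figure D1:**
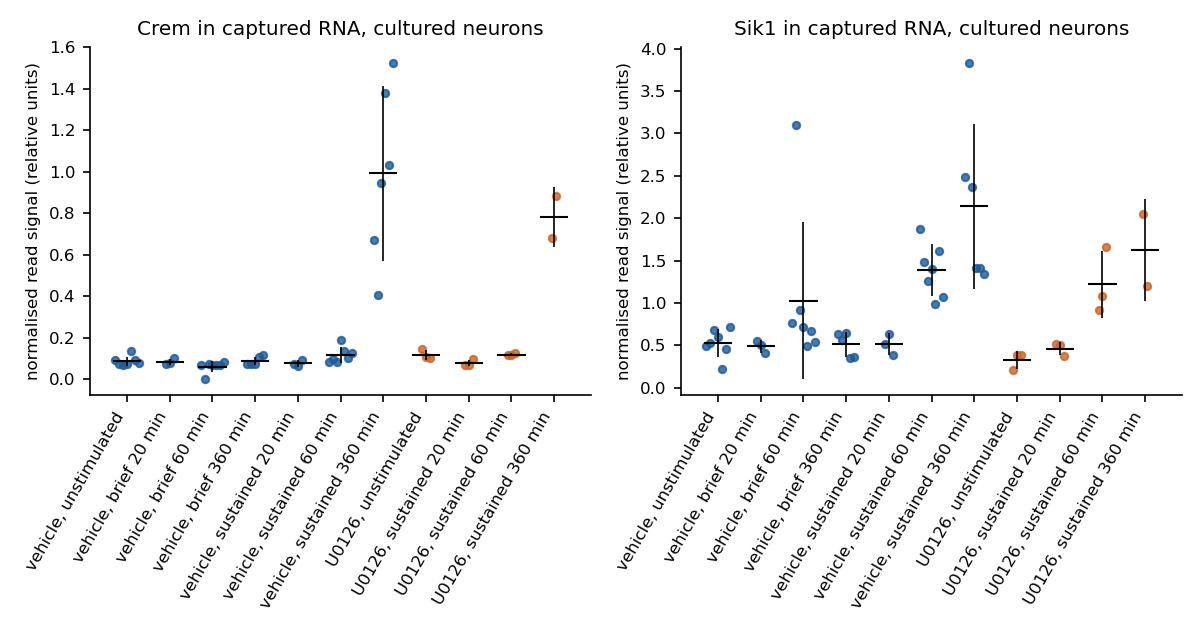
Captured signal of Crem and of Sik1 (linear axis, reads divided by a factor of each library) in unstimulated cultures and at 20, 60 and 360 min of sustained or brief activity, with vehicle in blue and U0126 in orange. Points are replicates, black lines the group means and vertical lines the SD; Crem stands apart from its unstimulated level at 360 min of sustained activity, from 0.406 to 1.53, and Sik1 already at 60 min, from 0.986 to 1.87.

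The plot of captured signal by group shows the different timing of the genes and the single high Sik1 point at 60 min of brief activity. When sustained and brief activity were compared directly, both genes differed at 360 min. Crem was higher in sustained activity by 3.27 ± 0.35 (adjusted p = 2.5e-10) and Sik1 by 1.98 ± 0.33 (adjusted p = 2.0e-06), among 184 of 277 genes called higher, 66.4%. Rescaling left Crem at 2.01 (adjusted p = 2.1e-05) and Sik1 at 0.69 (adjusted p = 0.0545).

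At 60 min the comparison of the patterns turned on the shallow library for both genes. Crem was higher in sustained activity by 1.05 ± 0.31 (adjusted p = 0.0232), with 7.58% of genes called, but the difference was 0.61 without that library and the call was lost. It was also lost without sustained replicate 4 or 5, with adjusted p of up to 0.0851 over these fits. Sik1 differed by 0.70 ± 0.29 (adjusted p = 0.194), and by 1.01 (adjusted p = 0.00263) without the shallow library.

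The relation between the genes was measured as log2 of the Crem signal over the Sik1 signal, each with the pseudocount, in the vehicle groups with 5 or more replicates. This ratio was −2.44 ± 0.85 in unstimulated cultures (SD, n = 7), −3.48 ± 0.61 at 60 min (n = 7) and −1.12 ± 1.29 at 360 min of sustained activity (n = 6). It therefore dipped and then passed its starting point in the mean. The gain from 60 to 360 min was 2.37 (two-sided exact permutation test, p = 0.00466, adjusted over 4 comparisons 0.0186). The drop from unstimulated to 60 min was −1.04 (exact permutation p = 0.0163, adjusted 0.0326), and the difference between unstimulated and 360 min was 1.33 (exact permutation p = 0.0536, adjusted 0.0536). The drop at 60 min missed the threshold without unstimulated replicate 1 or 6 or sustained replicate 1, 2, 3 or 6 (adjusted p of up to 0.0653), and the difference at 360 min passed it without unstimulated replicate 5 or sustained replicate 2 (down to 0.0218). At 60 min of brief activity the ratio differed from unstimulated by −1.39 (exact permutation p = 0.0390, adjusted 0.0521), and by −0.64 (adjusted 0.0781) without the shallow library.

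Across the means of the 11 culture groups, the panel genes whose log2 levels ran most like Crem were Mthfd2 (Pearson r = 0.979), Dennd2c (0.976), Peg10 (0.975), Ell2 (0.974) and Nap1l5 (0.974). Each of these differed from unstimulated cultures by 0.22 or less at 60 min and by 1.77 to 2.61 at 360 min, the late shape of Crem. The genes most like Sik1 were Per1 (0.977), a clock repressor and known CREB target, Vgf (0.977), a neuropeptide precursor, the nuclear receptors Nr4a2 (0.977) and Nr4a1 (0.974), and Fosl2 (0.956), a Fos family factor. These 5 differed from unstimulated cultures by 0.99 to 4.85 at 60 min, in log2 units. Crem and Sik1 correlated at 0.709, which placed Sik1 at rank 170 for Crem and Crem at rank 107 for Sik1. The groups share replicate numbers and a panel, and these correlations are descriptions.

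Other genes of CREB and cAMP signalling, with known CREB targets, were taken from a list of 54, of which 22 were tested on the panel. All of the 22 except Sik3 and Stk11 were listed as CREB targets or feedback genes. The list was made with earlier results of these data known, so counts over it are a description and no test of the pathway. At 60 min of sustained activity 14 of the 22 were called higher and 0 lower, beside 13.0% of all genes called higher. Their median log2 change was 2.11 beside 0.10 for all genes. Npas4, an activity-dependent transcription factor, changed by 6.37 ± 0.38 (adjusted p = 9.0e-18) and Fos, an AP-1 subunit, by 6.14 ± 0.40 (adjusted p = 1.0e-16). Of the kinases around Sik1, its relative Sik3 differed by 0.01 (adjusted p = 0.985) and its activator Stk11 by 0.06 (adjusted p = 0.93). At 360 min 19 of the 22 were called higher, with a median of 3.40, beside 69.3% called higher and a median of 1.46 for all genes. The smallest adjusted p were those of Pcsk1, a prohormone convertase, at 6.63 ± 0.30 (adjusted p = 5.0e-22), and Bdnf, a neurotrophin, at 4.99 ± 0.30 (adjusted p = 1.1e-17). Stk11 again differed little in these cultures, by 0.14 (adjusted p = 0.583). In the visual cortex Stk11 was called higher at 30 min of sustained light, by 0.50 ± 0.12 (limma, adjusted p = 0.00891), where 34.2% of genes were called. At 150 min of light it was not called (−0.02). In the cultures after 60 min of brief activity 7 of the 22 were called higher, where 5.42% of all genes were called in either direction. Fos was among the 7, at 4.03 ± 0.40 (adjusted p = 2.4e-10).

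With MEK inhibited by U0126, both genes still differed from their unstimulated level, and no effect of the drug on either was called. The U0126 cultures were replicates 5 to 7, while the vehicle groups unstimulated and at 60 and 360 min also held replicates 1 to 4. Drug and replicate set were therefore partly mixed in tests against these groups. Crem with U0126 was 0.145, 0.106 and 0.101 unstimulated, 0.0699, 0.0658 and 0.0962 at 20 min, 0.114, 0.116 and 0.126 at 60 min, and 0.679 and 0.883 at 360 min of sustained activity. Only the values at 360 min stood clear of the others, and they lay within the range of the vehicle replicates at that time. They came from replicates 7 and 6, and both lay below the vehicle replicates of the same number, at 1.03 and 1.53. Crem rose by 2.65 ± 0.53 at 360 min with U0126 (adjusted p = 1.1e-04), where 49.8% of genes were called. The response differed from that with vehicle by −0.64 ± 0.62 (adjusted p = 0.991, 95% interval −1.90 to 0.62), an interval that holds both no difference and a loss of more than 1 log2 unit.

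Sik1 with U0126 was 0.204, 0.390 and 0.383 unstimulated, 0.515, 0.498 and 0.370 at 20 min, 0.916, 1.08 and 1.66 at 60 min, and 2.05 and 1.20 at 360 min. The values at 60 and 360 min lay above all unstimulated values with U0126. Those at 360 min came from replicates 7 and 6, where the vehicle values were 1.41 and 1.35. Sik1 was thus higher with U0126 in replicate 7 and lower in replicate 6. Sik1 rose by 1.89 ± 0.45 at 60 min (adjusted p = 0.00342), where 7.22% of genes were called, and by 2.29 ± 0.50 at 360 min (adjusted p = 3.0e-04). Without U0126 replicate 7 at 60 min, the first of these had an adjusted p of 0.0516. The response with U0126 differed from that with vehicle by 0.47 at 60 min and by 0.33 at 360 min (95% interval −0.85 to 1.51), neither of them called. In these tests of the response 0.00% of genes were called at 60 and at 360 min. In unstimulated cultures U0126 and vehicle differed by 0.41 for Crem (adjusted p = 0.839) and by −0.66 ± 0.38 for Sik1 (adjusted p = 0.824), where 0.361% of genes were called, and at 20, 60 and 360 min of sustained activity neither gene was called between the treatments, where 0.722%, 1.44% and 0.00% of genes were. Under rescaling the changes at 360 min with U0126 were 1.37 for Crem (adjusted p = 0.0675) and 1.00 for Sik1 (adjusted p = 0.0948).

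The cycloheximide experiment asked whether the response at 360 min needs new protein, with 2 replicates in each group. Both genes rose with protein synthesis blocked, and the mean of each was higher in stimulated cultures with cycloheximide than without. The Crem signal was 0.107 and 0.108 in unstimulated vehicle cultures, 0.0748 and 0.116 in unstimulated cultures with cycloheximide, 1.40 and 1.64 at 360 min with vehicle, and 4.61 and 2.51 at 360 min with cycloheximide. Both stimulated cycloheximide values lay above both stimulated vehicle values, and the unstimulated groups overlapped, with neither gene called between them where 11.3% of genes were.

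Crem rose by 3.68 ± 0.38 with vehicle (adjusted p = 1.0e-05), where 74.6% of 283 genes were called, and by 5.03 ± 0.38 with cycloheximide (adjusted p = 7.5e-07), where 55.8% were. The median log2 changes of all genes were 1.85 and 1.27. In stimulated cultures Crem was higher with cycloheximide than with vehicle by 1.16 ± 0.38 (adjusted p = 0.0279), where 40.6% of genes were called. This call was lost when replicate 1 of either stimulated group was left out, with adjusted p of up to 0.17 and differences of 0.73 to 1.60. The test of whether the response itself differed gave 1.35 ± 0.54 (95% interval 0.17 to 2.53, adjusted p = 0.111), and 1.86 (adjusted p = 0.041) with the libraries rescaled.

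The Sik1 signal was 0.380 and 0.255 in unstimulated vehicle cultures, 0.391 and 0.397 with cycloheximide alone, 1.97 and 1.45 at 360 min with vehicle, and 2.33 and 5.01 at 360 min with cycloheximide. The replicate that was high in Crem was low in Sik1: among stimulated cycloheximide cultures, replicate 1 had the higher Crem value and replicate 2 the higher Sik1 value. Sik1 rose by 2.40 ± 0.41 with vehicle (adjusted p = 2.9e-04) and by 3.08 ± 0.41 with cycloheximide (adjusted p = 4.9e-05). Under rescaling, which takes out a rise shared by most of the panel, the first of these was 0.45 (adjusted p = 0.451). In stimulated cultures Sik1 differed between cycloheximide and vehicle by 1.01 ± 0.41 (adjusted p = 0.0718), a difference that was 1.32 (adjusted p = 0.0259) under rescaling and 1.56 (adjusted p = 0.0232) without cycloheximide replicate 1. Its responses differed by 0.68 ± 0.59 (adjusted p = 0.484), where 15.9% of genes were called.

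**Figure D2:**
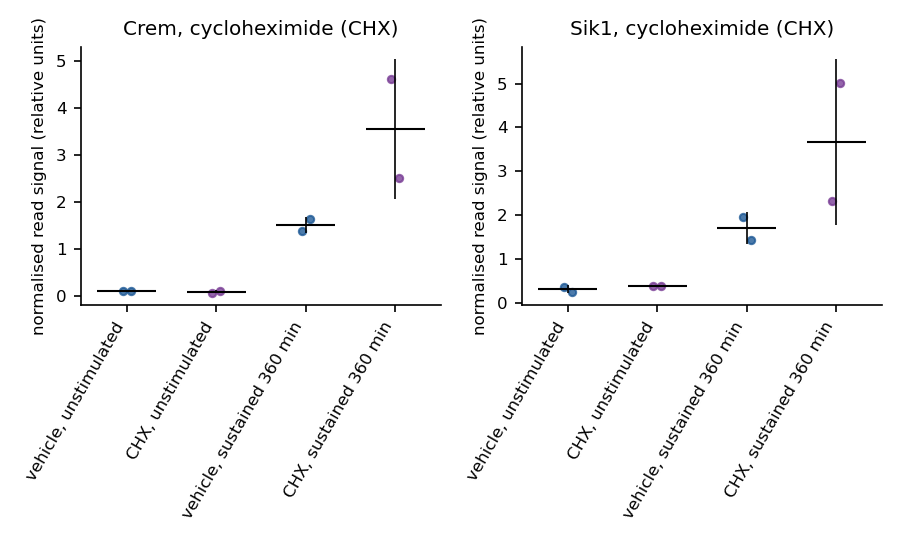
Captured signal of Crem and Sik1 (linear axis from 0) in unstimulated cultures and at 360 min of sustained activity, with vehicle in blue and cycloheximide in purple, 2 replicates a group with the mean as a black line and the SD as a vertical line. Both stimulated groups lie above both unstimulated groups, and with cycloheximide Crem reached 4.61 and Sik1 5.01.

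The plot of the cycloheximide experiment shows how far the stimulated cycloheximide replicates stood from each other in both genes. Of the 22 other listed genes tested in this experiment, 10 were called higher and 1 lower with cycloheximide than with vehicle in stimulated cultures. In this comparison 40.6% of all genes were called. Gadd45b, a stress-response gene, was among the 10 at 4.97 ± 0.56 (adjusted p = 3.8e-05), as was Junb, an AP-1 subunit, at 4.39 ± 0.47 (adjusted p = 3.2e-05).

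Intron reads come mostly from RNA that has not been spliced, and in total RNA they gave an earlier view of Crem than the captured signal. Introns of both genes were higher at 60 min of sustained activity, and neither gene's introns were called at 60 min of brief activity. They are given in RPM, reads per 1000000 of the intron reads summed over all transcripts. Each group had 2 replicates, except 60 min of brief activity with vehicle and 60 min of sustained activity with U0126, which had 1. Many rows of the intron table for transcripts of Crem share introns, so the rows are neither independent nor additive. In these libraries same-numbered replicates deviated together, so fits with the replicate number as a block are given where they change a call.

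The 17 Crem transcripts were set apart by where their gene models lie, in the GENCODE M21 annotation of GRCm38. On the minus strand of chromosome 18, 4 transcripts start inside the gene, between positions 3281078 and 3281747, and their introns cover 12580 to 13401 bases. A further 2 use only the upstream part and end between 3294184 and 3294482, and 11 span the gene. The intron table was made on mm9, so these positions describe the models and not the deposited regions. Sik1 (NM_010831) lies on the minus strand of chromosome 17 from 31844250 to 31855804 in GRCm38, with 7034 bases of intron.

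For the internal-start transcript NM_001110854 the intron level was 4.90 and 6.14 RPM in unstimulated vehicle cultures and 7.90 and 11.8 RPM at 20 min of sustained activity. It was 36.1 and 36.9 RPM at 60 min. After brief activity it was 7.63 and 7.86 RPM at 20 min and 4.06 RPM in the single replicate at 60 min. Its level at 60 min of sustained activity stood above every other vehicle value, and the level at 60 min of brief activity lay below both unstimulated values.

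The gene model of the spanning transcript NM_013498 covers the stretch of the internal-start transcripts and the upstream part. It had 12.8 and 14.1 RPM unstimulated, and 14.6 and 19.7 RPM at 20 min of sustained activity. At 60 min it had 42.3 and 43.1 RPM in sustained activity, beside 9.86 RPM in brief activity. The upstream-only transcript NM_001110851 had 9.04 and 8.84 RPM unstimulated, 13.5 and 16.2 RPM at 20 min and 22.2 and 20.96 RPM at 60 min of sustained activity, beside 6.08 RPM at 60 min of brief activity. All 3 kinds therefore ran in the same order over sustained activity, with no overlap between 60 min and unstimulated. Means at 60 min were 42.7 RPM for NM_013498, 36.5 RPM for NM_001110854 and 21.6 RPM for NM_001110851. The first was less than the others together, so the counted introns are not nested as the models are.

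Every one of the 17 Crem transcripts was called higher at 60 min of sustained activity, where 668 of 21520 transcripts, 3.10%, were called higher. Leaving out 1 library left 276 to 364 transcripts called higher. The log2 changes were 2.66 to 2.77 for the 4 internal-start transcripts, 1.51 to 1.81 for the 11 spanning ones and 1.25 to 1.26 for the 2 upstream-only ones, with adjusted p from 2.6e-04 to 0.00184. NM_001110854 rose by 2.68 ± 0.22 (adjusted p = 2.6e-04), NM_013498 by 1.65 ± 0.16 (adjusted p = 5.6e-04) and NM_001110851 by 1.25 ± 0.15 (adjusted p = 0.00163). Whether the kinds differed from each other was not tested. The spanning models overlap both other kinds, while the internal-start and upstream-only models do not overlap each other. These calls rest on the spread shared by all groups of the fit, and with only the groups compared the adjusted p were 0.197 for NM_013498 and 0.163 for NM_001110854.

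Per kilobase of intron, the unstimulated level of the internal-start transcripts was 0.378 to 0.414 RPM and their level at 60 min was 2.66 to 2.73 RPM. The lengths are those of the GRCm38 models while reads were counted on mm9, so they may not match the counted introns. The upstream-only transcripts had 0.213 to 0.214 RPM per kilobase unstimulated and 0.516 to 0.518 RPM per kilobase at 60 min. On this scale of levels the 3′ introns held more reads than the upstream introns in both states, and the distance between them was wider at 60 min.

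At 20 min of sustained activity 0 of 17 Crem transcripts were called without the block, with 0.279% of all transcripts called, and 4 of 17 with it, where 0.980% were called. Those 4 were the internal-start transcripts, with log2 changes of 0.75 to 0.86 and adjusted p of 0.016 to 0.0346. From 20 to 60 min 15 of 17 rose without the block and 17 with it, in a comparison where 2.27% and 12.4% of all transcripts were called. Leaving out 1 library left 8 to 42 transcripts higher and 2 to 9 lower, of 488 called in full. Against brief activity at 60 min all 17 were higher, by 1.78 to 3.12, where 1.91% were called, and the single brief library was taken to vary like the others. The calls of NM_013498 and NM_001110854 from 20 to 60 min were lost without sustained replicate 1 at 20 min or either replicate at 60 min, with adjusted p of up to 0.0582. At 20 and 60 min of brief activity no Crem transcript was called against unstimulated, where 0.112% and 0.00% of transcripts were.

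Sik1 introns were at 8.09 and 8.28 RPM unstimulated, 10.8 and 10.8 RPM at 20 min of sustained and 11.3 and 10.4 RPM at 20 min of brief activity. At 60 min they were at 35.3 and 27.9 RPM in sustained activity and at 9.31 RPM in brief activity. The values at 60 min of sustained activity lay far above all others, and the values at 20 min lay slightly above the unstimulated ones in both patterns. Sik1 introns rose by 1.91 ± 0.15 at 60 min (adjusted p = 2.4e-04), and by 1.52 ± 0.15 from 20 to 60 min (adjusted p = 0.00512). Without sustained replicate 1 at 20 min the latter had an adjusted p of 0.0582. Sik1 introns were higher in sustained than in brief activity at 60 min by 1.73 ± 0.19 (adjusted p = 0.00223), and at 20 min of sustained activity they differed from unstimulated by 0.39 ± 0.15 (adjusted p = 0.665). Per kilobase of intron, with lengths again from the GRCm38 models, the level of Sik1 went from 1.16 to 4.49 RPM. This was above that of every Crem transcript in both states.

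**Figure D3:**
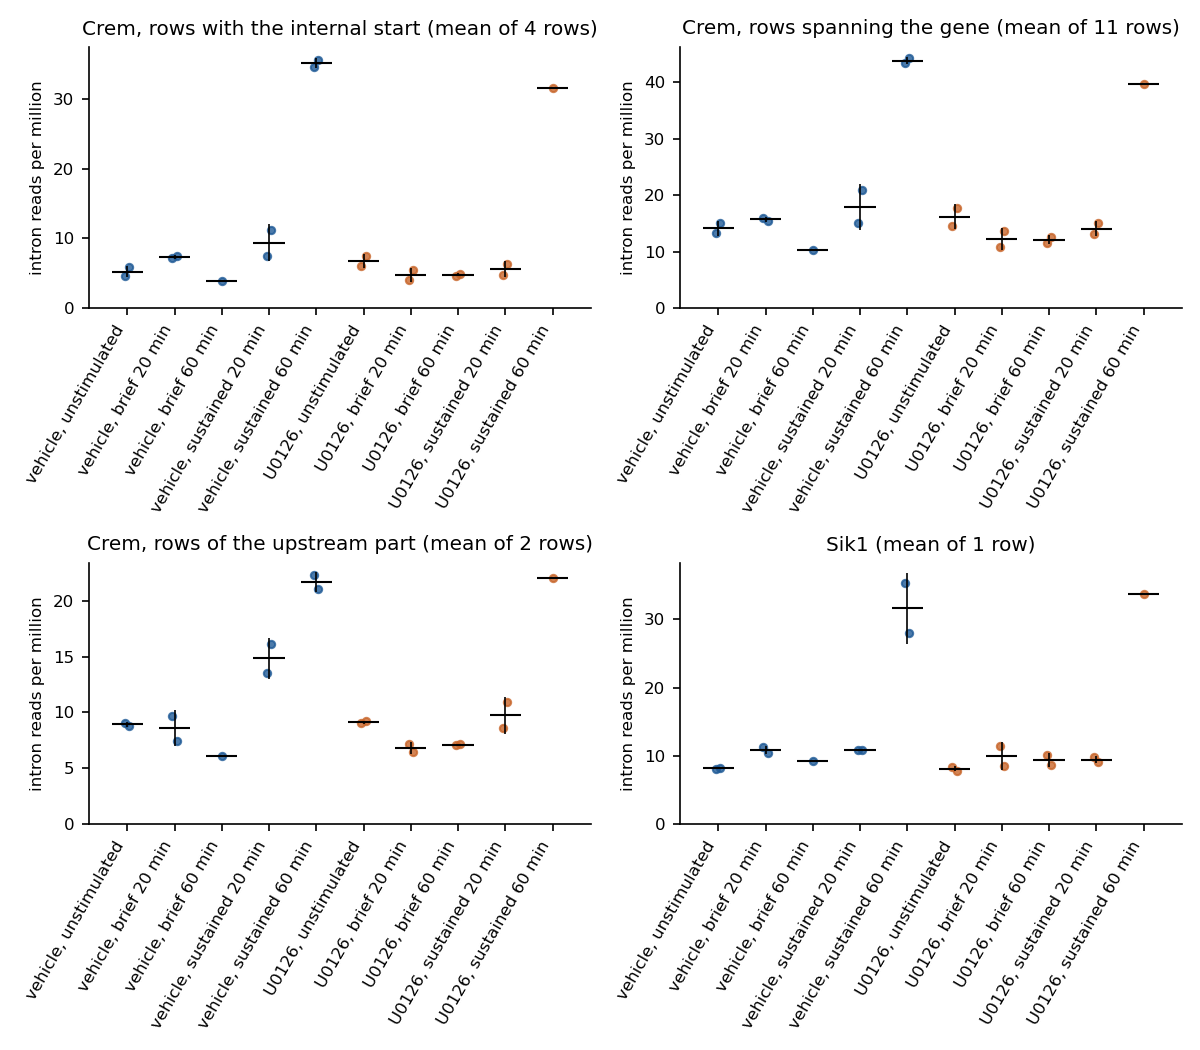
Intron level in RPM (linear axis from 0) of Sik1 and of the Crem transcripts by kind, averaged over transcripts of a kind, in unstimulated cultures and at 20 and 60 min of sustained and brief activity, with vehicle in blue and U0126 in orange. Points are replicates, black lines means and vertical lines the SD; in every panel the points at 60 min of sustained activity stand above the rest, for Sik1 at 35.3 and 27.9 RPM with vehicle.

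The plot of intron levels shows that the U0126 points followed the vehicle points at 60 min. With U0126, Sik1 introns were at 8.34 and 7.83 RPM unstimulated, at 9.87 and 9.07 RPM at 20 min, and at 33.7 RPM in the single replicate at 60 min of sustained activity. NM_001110854 was at 6.52 and 7.91 RPM unstimulated, at 5.03 and 6.75 RPM at 20 min and at 33.2 RPM at 60 min. For both genes the replicate at 60 min lay far above the others, while at 20 min NM_001110854 with U0126 lay below both vehicle replicates of that time.

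At 60 min with U0126 all 17 Crem transcripts rose, by 1.18 to 2.24 (adjusted p from 0.00561 to 0.0261), and Sik1 rose by 2.02 ± 0.19 (adjusted p = 0.00132), where 3.17% of transcripts were called. The responses with U0126 and with vehicle differed by −0.53 to 0.005 for Crem transcripts and by 0.12 ± 0.24 for Sik1, none called where 0.00% of transcripts were. The call of NM_013498 with U0126 was lost without unstimulated U0126 replicate 1 (adjusted p = 0.0622). At 20 min the responses differed by −1.15 to −1.03 for the 4 internal-start transcripts (adjusted p = 1 without the block and 0.114 to 0.136 with it). That comparison therefore missed the threshold in both fits, in a table where 0.00% of transcripts were called for it.

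Set beside each other, the introns and the captured signal of Crem differed in timing. At 60 min of sustained activity the internal-start introns were higher by 2.66 to 2.77 in log2 units, while the captured Crem signal at the same time differed by 0.38 ± 0.31. For Sik1 the corresponding values were 1.91 ± 0.15 and 1.42 ± 0.29. The measures come from separate libraries with different pseudocounts, no introns at 360 min were analysed here, and the difference between measures was not tested. Of 52 other listed genes with tested introns, 20 were called higher and 0 lower at 60 min of sustained activity, beside 3.10% of all transcripts called higher. The smallest adjusted p were those of the CREB targets Pcsk1 (5.63), Nr4a1 (6.51), Fosb (6.76) and Nr4a3 (4.81). The largest, from the signalling part of the list, were those of Creb1 (0.004), Crtc2 (−0.03), Pde4b (−0.04) and Pkia (0.02), which were not called. At 60 min of brief activity, a group with a single replicate, the median log2 change of the 52 was 0.15. The CREB targets Fos and Nr4a1 differed by 3.49 and 2.05 there, yet no transcript of any gene was called. The absence of a call in this group therefore does not show the absence of a response.

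The enhancer capture measured RNA from regions that were captured as enhancers. Of the 5 regions, 2 named for Sik1 were called higher at 60 min of sustained activity, where 9.33% of 343 regions were called. The region named for Crem was not called. Leaving out 1 replicate of the groups compared left 4 to 32 regions called higher. The Sik1 regions lie on chromosome 17 of mm9, at chr17:31926590-31928470, chr17:31946260-31947600, chr17:31979280-31980590 and chr17:31993200-31994330, and the Crem region at chr18:3259700-3260710. The assignment of regions to genes is that of the deposited table. These positions are in mm9 and the gene positions above in GRCm38, so they do not give the distance of a region from its gene. Whether the RNA arose at an enhancer or from the nearby gene was not tested. The factor behind this signal differed strongly between libraries, with replicates 1 and 2 above 3 and 4 in most groups. Values are therefore compared within a replicate number or as reads per 100000 captured reads, and the latter scale was chosen after the data were seen. A comparison within a number does not remove the factor, which also differed between groups. In replicate 1 at 60 min of brief activity 3 reads stood for a signal of 0.0972 with vehicle and of 4.79 with U0126.

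At chr17:31993200-31994330 the signal in unstimulated vehicle replicates 1 to 4 was 0.142, 0.535, 0.234 and 0.321. At 20 min of sustained activity it was 5.88, 2.66, 1.02 and 1.03, and at 60 min 10.3, 5.14, 1.03 and 2.33. At 60 min of brief activity it was 0, 0, 0.188 and 0.409, where 0 reads allow a signal of up to 0.0972 in replicate 1 and 0.0825 in replicate 2. All 8 sustained values lay above all unstimulated values, and the brief values did not.

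As reads per 100000, this region had 32.5 ± 11.7 in unstimulated cultures (SD, n = 4), and in sustained activity 115 ± 11.2 at 20 min and 145 ± 35.0 at 60 min. At 60 min of brief activity it had 20.4 ± 27.8. On the deposited scale it rose by 2.83 ± 0.79 at 60 min (adjusted p = 0.0191), where 32 of 343 regions, 9.33%, were called, and was higher than in brief activity by 3.42 ± 0.79 (adjusted p = 0.0105), where 4.08% were. On the scale of shares these were 1.96 (adjusted p = 0.0093) and 2.56 (adjusted p = 0.0012). At 20 min the difference was 2.15 ± 0.79 (adjusted p = 0.219), where 0.875% of regions were called, and 1.68 (adjusted p = 0.053) as shares.

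At chr17:31946260-31947600 the unstimulated signal was 0.109, 0, 0.0899 and 0.222, and at 60 min it was 2.60, 3.24, 0.495 and 0.964 in sustained and 1.07, 1.95, 0.0761 and 0.226 in brief activity. All sustained values lay above the unstimulated ones, and replicates 1, 2 and, by a small margin, 4 of brief activity did too. The region rose by 2.39 ± 0.69 (adjusted p = 0.0203), or by 1.64 (adjusted p = 0.0266) as shares, and its difference between the patterns was 1.11 ± 0.69 (adjusted p = 0.482). Its call at 60 min ended without unstimulated replicate 2 or 3 or sustained replicate 1 or 2, with adjusted p of up to 0.109. That of chr17:31993200-31994330 ended without unstimulated replicate 3 or sustained replicate 1 or 2 (up to 0.115), and its difference between the patterns without sustained replicate 1 or brief replicate 2 (up to 0.0794).

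The region at chr17:31979280-31980590 had the highest signal of the 4 named for Sik1, with 1.15, 1.61, 0.688 and 1.25 in unstimulated replicates and 15.3, 8.34, 3.23 and 4.63 at 60 min of sustained activity. These groups did not overlap, yet the difference of 2.34 ± 1.00 had an adjusted p of 0.151 and passed the threshold under rescaling, at 1.59 (adjusted p = 0.0454). The remaining Sik1 region, at chr17:31926590-31928470, had 0.0974, 0.487, 0.176 and 0.205 unstimulated and 0, 1.43, 0.274 and 0.594 at 60 min, and differed by 0.48 ± 0.67 (adjusted p = 0.833).

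The Crem region had a signal of 4.29, 4.83, 2.06 and 0.729 in unstimulated replicates and 17.4, 8.60, 6.47 and 2.37 at 60 min of sustained activity. Within each replicate number the sustained value was the higher, but the groups overlapped, and the difference was 1.44 ± 0.91 (adjusted p = 0.433). As reads per 100000 it had 203 ± 89.4 unstimulated and 328 ± 198 at 60 min, a spread as wide as the difference. With brief activity at 60 min the values were 8.07, 0.0825, 2.43 and 1.35, with a difference between the patterns of 1.99 ± 0.91 (adjusted p = 0.286).

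**Figure D4:**
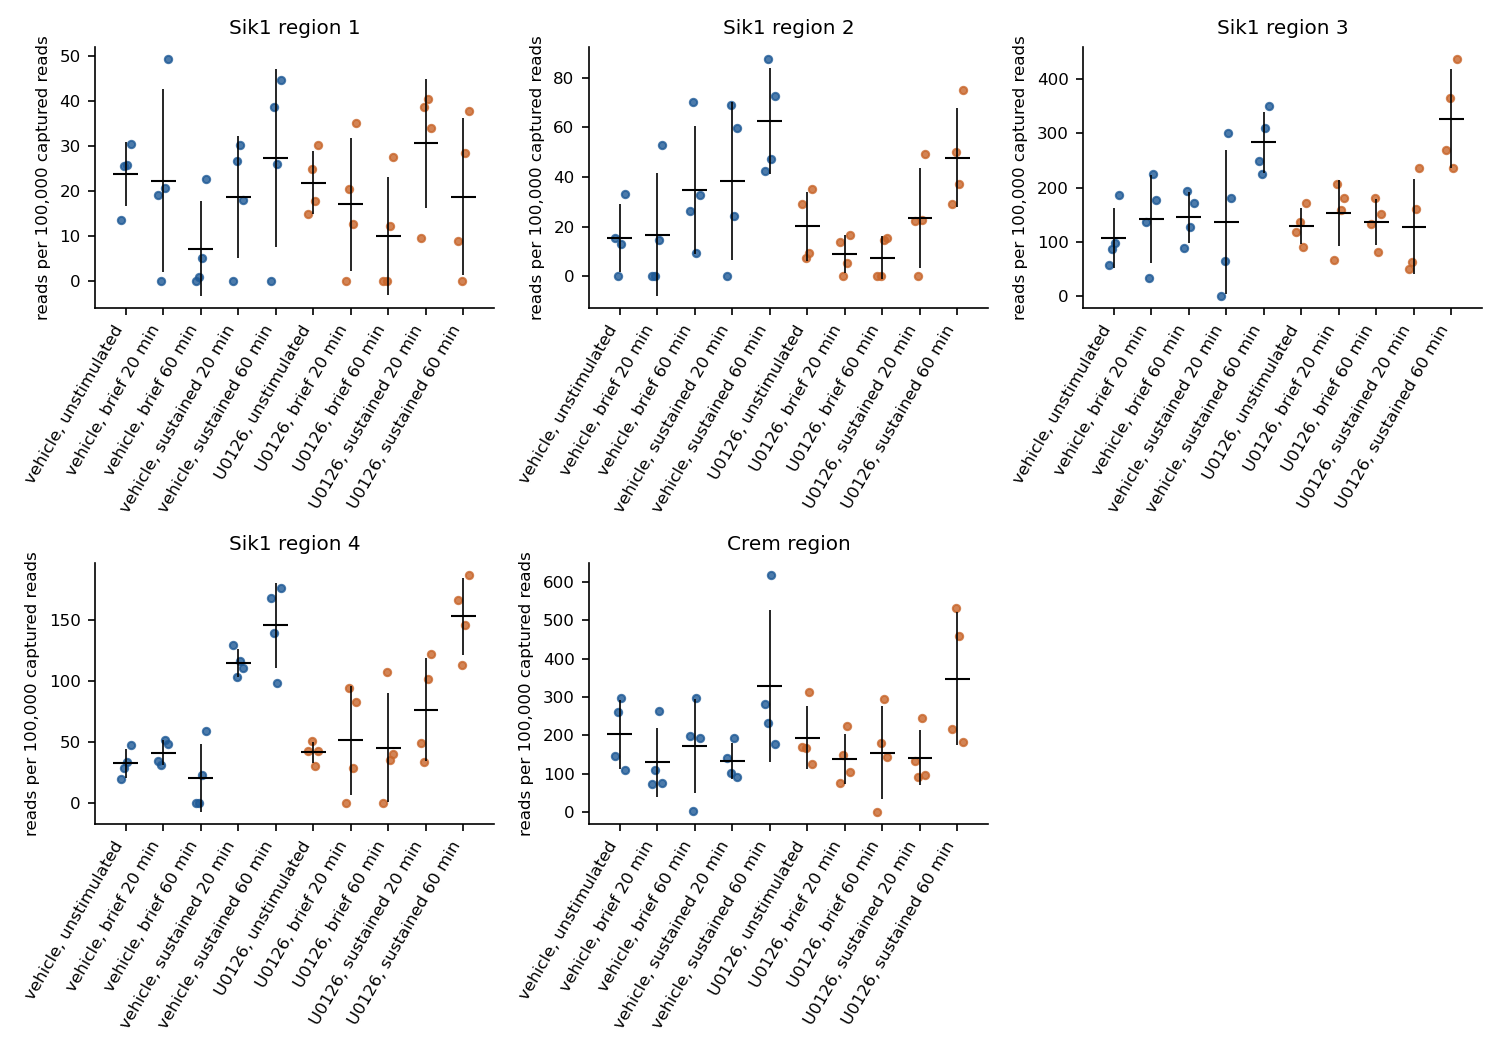
Reads per 100000 captured reads in the 4 regions named for Sik1, numbered in the order of their positions on chromosome 17, and in the region named for Crem, by group, with vehicle in blue and U0126 in orange. Points are replicates, black lines means and vertical lines the SD; in the Sik1 region numbered 4 the means at 60 min are 145 in sustained and 20.4 in brief activity with vehicle.

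The plot of enhancer shares shows the sustained groups at 60 min of the Sik1 regions numbered 3 and 4 above their unstimulated groups with either treatment. With U0126 at 60 min, chr17:31993200-31994330 had a signal of 4.66, 6.77, 1.47 and 2.03, and as reads per 100000 it had 153 ± 31.6, close to the vehicle mean. Its change from unstimulated with U0126 was 2.16 ± 0.79 (adjusted p = 0.118) on the deposited scale, where 4.96% of regions were called, and 1.61 (adjusted p = 0.0436) as shares. No test of a difference between the U0126 and vehicle responses was called for any of the 5 regions, and 0.00% of all regions were called in these tests.

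In the visual cortex, Sik1 after 30 min of sustained light was higher than in the dark with corn oil but not with SL327, and that difference between treatments passed its own test. A higher dark level with SL327 than with corn oil made up most of that difference. Crem was higher at 150 min with corn oil, by less than 1 log2 unit. The sustained and brief tables were normalised separately, so levels are compared within each.

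In sustained light, the Sik1 signal with corn oil was 0.0490 and 0.0383 in the dark and 0.168, 0.135 and 0.0769 in light at 30 min. At 150 min it was 0.0671 and 0.0757 in the dark and 0.131, 0.0837 and 0.116 in light. With SL327 it was 0.112 and 0.113 in the dark and 0.0770, 0.0553 and 0.0800 in light at 30 min. With corn oil all light values lay above the dark values of their time, whereas with SL327 at 30 min both dark values lay above all light values.

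Sik1 rose in light by 1.41 ± 0.27 at 30 min with corn oil (adjusted p = 0.0023), where 91 of 266 genes, 34.2%, were called and the median log2 change of all genes was 0.31. With SL327 the difference between light and dark was −0.66 ± 0.27 (adjusted p = 0.168), where 3.38% were called. The light response was therefore lower with SL327 by 2.08 ± 0.39 in log2 units (interaction −2.08, 95% interval −2.91 to −1.25, adjusted p = 0.00235), where 19.9% of genes were called. The median interaction of all genes was −0.34, and under rescaling that of Sik1 was −1.70 (adjusted p = 0.0148). Most of the Sik1 interaction lay in the dark: with SL327 Sik1 was higher than with corn oil by 1.32 ± 0.30 at 30 min (adjusted p = 0.0139), where 11.3% of genes were called higher. That call in the dark was lost without corn oil replicate 2 or either SL327 replicate, with adjusted p of up to 0.119, and under rescaling (1.10, adjusted p = 0.0514). The other dark comparisons of Sik1 between SL327 and corn oil were not called, with differences of −0.31 at 150 min in the sustained table (adjusted p = 0.762), and of 0.06 at 30 min (adjusted p = 0.986) and −0.41 at 150 min (adjusted p = 0.607) in the brief table. At 30 min of sustained light all SL327 light values lay above both corn oil dark values. The treatments were not tested against each other in light.

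At 150 min the Sik1 signal with SL327 was 0.0576 and 0.0561 in the dark and 0.0762, 0.110 and 0.111 in light. The light values again lay above the dark ones, as with corn oil. The differences between light and dark were 0.58 with corn oil (adjusted p = 0.173) and 0.75 with SL327 (adjusted p = 0.258, where 0.376% of genes were called), and the test of a difference between them gave 0.17 (adjusted p = 0.857), where 0.376% were called too.

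The Crem signal with corn oil was 0.0672 and 0.0680 in the dark and 0.0863, 0.0888 and 0.0765 in light at 30 min, and 0.0596 and 0.0595 in the dark and 0.0803, 0.0889 and 0.0868 in light at 150 min. Light and dark did not overlap at either time. The difference at 30 min was 0.30 ± 0.13 (adjusted p = 0.0856), close to the median of 0.31 for all genes. At 150 min Crem rose by 0.50 ± 0.13 (adjusted p = 0.0271), where 9.40% of genes were called and the median was 0.16, but the call was lost without either dark replicate or light replicate 2 or 3, with adjusted p of up to 0.162, and under rescaling the difference was 0.34 (adjusted p = 0.0914).

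With SL327 Crem was 0.0746 and 0.0703 in the dark and 0.0724, 0.0724 and 0.0723 in light at 30 min. At 150 min it was 0.0715 and 0.0692 in the dark and 0.0588, 0.0895 and 0.0649 in light. Light and dark overlapped at both times. The responses with SL327 and corn oil differed by −0.30 at 30 min (adjusted p = 0.249) and by −0.50 ± 0.18 at 150 min (adjusted p = 0.181), the latter passing the threshold without SL327 light replicate 2 (−0.67, adjusted p = 0.0183).

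**Figure D5:**
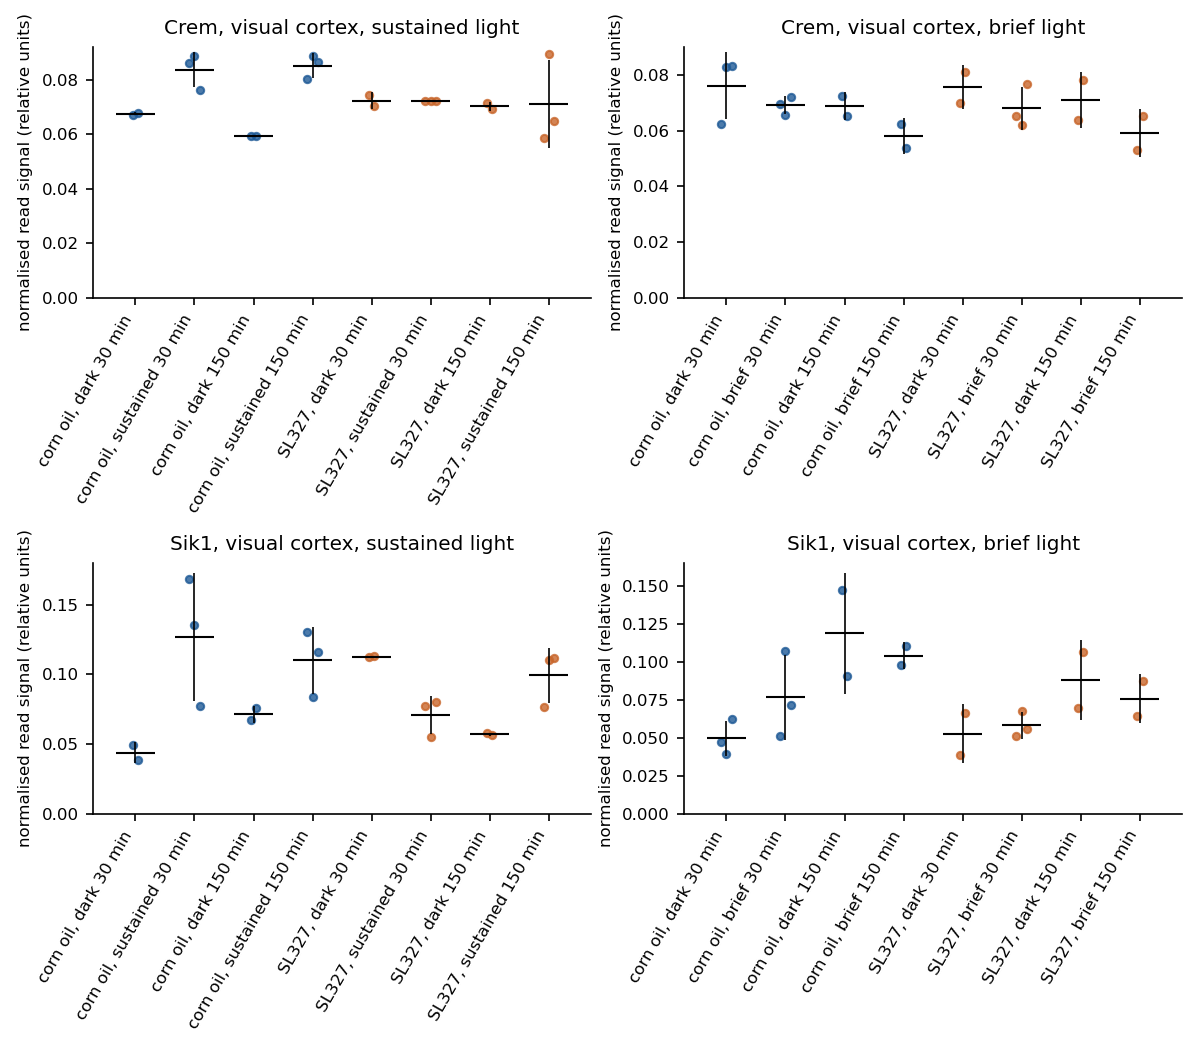
Captured signal of Crem and Sik1 in visual cortex in the dark and in light at 30 and 150 min, for the tables of sustained and of brief light, with corn oil in blue and SL327 in orange. Points are samples, black lines means and vertical lines the SD. In sustained light at 30 min Sik1 with corn oil lies above the corn oil dark samples, up to 0.168, and with SL327 below the SL327 dark samples.

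The plot of visual cortex signal also shows the brief light samples, in which no response to light was called for either gene. Sik1 with corn oil was 0.0471, 0.0394 and 0.0623 in the dark and 0.0513, 0.107 and 0.0717 in light at 30 min, groups that overlapped, with a difference of 0.56 ± 0.28 (adjusted p = 0.482) where 1.15% of 260 genes were called. At 150 min it was 0.147 and 0.0904 in the dark and 0.0978 and 0.110 in light, a difference of −0.15 (adjusted p = 0.891) where 0.00% were called. The dark samples themselves differed between the times, by 1.19 ± 0.31 (adjusted p = 0.0278), where 10.8% of genes were called. That call was lost without dark replicate 1 or 2 at 30 min or dark replicate 1 at 150 min, with adjusted p of up to 0.285.

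Crem in brief light with corn oil was 0.0624, 0.0831 and 0.0833 in the dark and 0.0696, 0.0658 and 0.0723 in light at 30 min, and 0.0726 and 0.0653 in the dark and 0.0626 and 0.0537 in light at 150 min. The groups overlapped at 30 min, and at 150 min both light values lay below both dark values. The differences were −0.12 (adjusted p = 0.783) and −0.24 (adjusted p = 0.679). With SL327 the Crem signal ran from 0.0532 to 0.0813 and the Sik1 signal from 0.0389 to 0.106 over all brief table samples, with no difference between light and dark called, where 0.00% of genes were called at 30 min and 0.385% at 150 min.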

How the data were processed

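Stranded total RNA libraries were made, and some were enriched with RNA baits, per the labels' protocols. The submitters' processing notes name bedtools, SAMtools, STAR and mm9, with no versions. The authors deposited captured values as a signal, which the values show to be whole reads divided by a factor of each library (tolerance 0.05 reads). The sources used here do not give that factor. Introns were deposited in RPM, worked out from columns that each sum to just under 1000000, and whole reads were recovered for 100% of values. Whether counting used strand is not stated in the labels.

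The tables held 54 columns of values that were not used, among them a U0126 table repeated under the brief label and an identical pair of intron columns that carried different labels. For captured genes, U0126 in brief activity was not analysed here. Visual cortex headers reading sl217 and sl317 were taken as SL327. Of 186 samples 1 had no group.

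Tests used limma 3.58.1 in R 4.3.3 on log2-transformed values after adding a pseudocount (the 10th percentile of non-zero values; 0.00936 for the gene capture, 0.0115 for cycloheximide, 0.248 for introns, 0.229 for enhancers, 0.00317 and 0.00341 for sustained and brief light). Features with a mean below it were left out, all groups of an experiment shared 1 fit, and p-values were adjusted by Benjamini-Hochberg over the table, with a threshold of 0.05. On this scale the changes of low genes are understated. Where nothing says that replicates came from separate cultures or animals, p-values measure only the spread between these samples. Intervals and limits for 0 counts (3 reads) cover counting error only. The ratio of the genes used exact permutation tests in Python 3.11.15 with scipy 1.17.1.

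Same-numbered intron replicates deviated together in 56 of 56 pairs (lowest r = 0.841, threshold 0.1), so their numbers were taken to pair the samples. This comes from the data. The test script was checked on simulated data. Alternatives covered the pseudocount, the filter, the scale, the groups in the fit, a replicate block, single cultures, omitted replicates and, for introns, edgeR 4.0.16. The genes, the CREB list and the tests were chosen with earlier results of these data known. Beside both genes, the text names the 5 panel genes most correlated with each and listed genes with the smallest or largest adjusted p.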

Additional observations from a re-analysis of the deposited data

Results flagged for a closer look

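In groups of 4 to 10 replicates, 12 of 60 tests found a value far from the rest of its group, where chance gives about 1 in 20. In the gene capture these were Crem in unstimulated replicate 5, at 0.133, and both genes in vehicle replicate 2 at 60 min of brief activity, with Crem at 0 and Sik1 at 3.10 in a library of 8498 reads.

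The other 9 were enhancer values. With U0126, replicate 2 stood high at chr17:31926590-31928470 at 20 min of sustained activity (1.97), and at chr17:31946260-31947600 (3.01) and the Crem region (31.9) at 60 min. It also stood high at 20 min of brief activity at chr17:31979280-31980590 (10.1), chr17:31993200-31994330 (4.60) and the Crem region (7.25), and at 60 min of brief activity at chr17:31993200-31994330 (1.93). At chr17:31979280-31980590, vehicle replicate 1 at 20 min of brief activity stood at 7.02 and U0126 replicate 1 at 60 min of brief activity at 102. That last library held 48309 reads, the fewest of the enhancer capture, and the largest factor per read. The part of library scale in these values was not tested.

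The response of Sik1 to 30 min of sustained light differed between SL327 and corn oil by −2.08 (limma, adjusted p = 0.00235). All 3 light samples with corn oil lay above the corn oil dark samples, and all 3 with SL327 below the SL327 dark samples. The SL327 dark samples were themselves higher than those with corn oil by 1.32, a call that was lost under rescaling (1.10).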

How the results depend on the processing

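Of 3678 refits of member results, 3582 kept the direction and side of the threshold or were called in neither fit (237 of these changed sign), 70 lost a call, 26 gained one and 0 reversed a call. edgeR on introns changed no call of the members named. edgeR on captured tables was not run.

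Rescaling the libraries weakened Sik1 at 360 min of sustained activity (0.62), against brief (0.69) and with U0126 (1.00), Crem at 360 min with U0126 (1.37) and Crem against brief at 60 min (0.98), the vehicle Sik1 response in the cycloheximide experiment (0.45), Sik1 with SL327 in the dark (1.10) and Crem at 150 min of light (0.34). It brought past the threshold Sik1 with cycloheximide (1.32), the Crem cycloheximide interaction (1.86), chr17:31993200-31994330 at 20 min (1.75) and at 60 min with U0126 (1.80), and chr17:31979280-31980590 at 60 min (1.59). It moved the split at 360 min from 192 higher and 4 lower to 62 and 52, since it takes out a rise shared by most of the panel. For introns at 60 min the split went from 668 and 1037 to 836 and 549, for enhancers from 32 and 0 to 56 and 23, or 45 and 37 as shares. As shares, a scale chosen after the data were seen, chr17:31993200-31994330 at 60 min with U0126 was called (1.61).

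Fitting only the groups compared kept the values and lost the calls for Crem against brief at 60 min (1.05), Sik1 at 60 min with U0126 (1.89), Crem with cycloheximide (1.16), Crem at 150 min of light (0.50) and Sik1 between dark times of the brief table (1.19). It called Sik1 between dark times of the sustained table (0.68), chr17:31993200-31994330 at 20 min (2.15) and chr17:31979280-31980590 at 60 min (2.34). It left few residual degrees of freedom for introns, whose calls were all lost: at 60 min (Crem NM_013498 1.65, NM_001110854 2.68, Sik1 1.91), with U0126 (1.33, 2.17, 2.02), against 20 min (1.32, 1.89, 1.52) and against brief (2.09, 3.09, 1.73). Replicates 5 to 7 alone gave 0.66 for Crem against brief at 60 min. With the pseudocount divided in 2, the Crem to Sik1 ratio passed the threshold at 360 min (1.38) and at 60 min of brief activity (−1.54).

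With the replicate number as a block, NM_001110854 was called at 20 min (0.79), Sik1 between 60 and 360 min of brief activity (−0.89), Sik1 with cycloheximide (1.01) and chr17:31993200-31994330 at 60 min with U0126 (2.30). The second of these was not called with the block and without the shallow library (−0.61, adjusted p = 0.124), a fit chosen after the data were seen, which called Sik1 between the patterns at 60 min (0.95). The block changed no other call of the members named except NM_001110851 between 20 and 60 min. It raised the intron calls at 60 min to 1564 higher and 3351 lower. In the other culture tables the labels do not tie the numbers across groups, and not every pair passed 0.1, so the numbers were not taken to pair the samples. Same-numbered deviations correlated above 0.1 in 152 of 167 pairs of the gene capture, 6 of 12 with cycloheximide and 161 of 171 of the enhancer capture, and 36 of 48, 6 of 8 and 38 of 39 replicates correlated best with their own number.

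Leaving out single replicates changed calls over these ranges: Sik1 60 against 20 min 1.22 to 1.57, Sik1 at 60 min with U0126 1.59 to 2.07, sustained against brief at 60 min 0.61 to 1.15 for Crem and 0.57 to 1.01 for Sik1, cycloheximide 0.73 to 1.60 for Crem and 0.46 to 1.56 for Sik1, NM_013498 with U0126 1.20 to 1.46, introns 60 against 20 min 1.11 to 1.53 (NM_013498), 1.61 to 2.17 (NM_001110854) and 1.35 to 1.68 (Sik1). They were 2.05 to 2.81 for chr17:31946260-31947600, 2.32 to 3.34 and, against brief, 2.91 to 3.93 for chr17:31993200-31994330, 1.15 to 1.48 for Sik1 with SL327 in the dark, 0.47 to 0.54 for Crem at 150 min of light, −0.67 to −0.38 for its SL327 interaction, and 0.85 to 1.53 for Sik1 between dark times. The Crem to Sik1 ratio ranged from −1.16 to −0.75 at 60 min, from 1.07 to 1.74 at 360 min and from −1.60 to −0.64 at 60 min of brief activity.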
